A study of Mus musculus with 20 samples.

Results

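Dural CNS-associated macrophages (dCAMs) are the macrophages of the dura mater, the outer layer of the meninges. The genes described here are 9 that encode antimicrobial metabolic enzymes, an arginine transporter and superoxide-producing subunits: Acod1, Nos2, Arg1, Arg2, Ass1, Slc7a2, Cybb, Cyba and Ncf1. They were chosen by name out of 33243 genes in the count table, with earlier results of these data known, so the counts of members called below are descriptions. All 9 were among the 16632 genes that had enough counts to be tested. Their RNA was measured in 20 bulk libraries from 10 mice, with a tdT+ and a tdT- library from each mouse.

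All mice carried Ccr2creERT2/+ and R26tdT/tdT, so tamoxifen switched on the red fluorescent protein tdTomato (tdT) for good in cells that expressed the monocyte receptor gene Ccr2 at that time. All of them, controls included, received the CSF1R inhibitor BLZ945, which depletes macrophages, for 7 days at 200 mg/kg, and tamoxifen at 2 mg per dose around the last gavage day. The mice were of both sexes and between the second and the fourth month of life at the first gavage. After 8 weeks, 5 mice received LPS, a bacterial cell wall component, at 2.5 mg/kg intraperitoneally, and 5 mice received PBS (CTL). The dura was taken 12 h later, and CD45int CD11b+ CD206int-high cells were sorted as tdT+ or tdT-. The label records Ccr2 expression at the time of tamoxifen only, so the tdT- gate can hold cells that had escaped depletion as well as cells that arrived unlabelled. Mouse numbers are those of the labels: 174, 175, 177, 178 and 179 for CTL, and 54, 56, 59, 60 and 61 for LPS.

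Library totals ran from 6017650 to 12208203 counts in CTL mice and from 12073566 to 18925908 in LPS mice, so depth moved with treatment, and mice of the 2 treatments carry numbers from separate ranges. Treatment and anything else that went with those ranges cannot be told apart. The macrophage markers Mrc1, Csf1r, Cd68 and Adgre1 were found in every library. The summed level of 10 border macrophage markers was 15056 to 17065 CPM (counts scaled to a common library size) in tdT+ CTL libraries and 5847 to 12790 CPM in tdT- CTL libraries. It was 7364 to 9374 CPM in tdT+ LPS libraries and 5708 to 7011 CPM in tdT- LPS libraries. The tdT- CTL libraries stood apart in holding 7376 to 9807 genes above 3 counts, against 10390 to 11572 in tdT+ CTL and 11682 to 13118 in LPS libraries, and their 5 fibroblast markers summed to 10.9 to 3993 CPM, against 56.7 to 336 CPM in the other groups.

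Background on the genes helps to read what follows. Activated macrophages divert the citrate cycle intermediate cis-aconitate into itaconate, which is made by the mitochondrial enzyme encoded by Acod1 and which restrains succinate dehydrogenase and bacterial growth. They also compete over arginine: inducible nitric oxide synthase (Nos2) turns it into nitric oxide and citrulline, arginase 1 in the cytosol (Arg1) and arginase 2 in mitochondria (Arg2) turn it into ornithine and urea, argininosuccinate synthase (Ass1) starts the recycling of citrulline to arginine, and the cationic amino acid transporter encoded by Slc7a2 brings arginine into the cell. The phagocyte NADPH oxidase passes electrons from NADPH to oxygen through a membrane flavocytochrome made of the catalytic subunit (Cybb) and its partner (Cyba), once the cytosolic organizer subunit encoded by Ncf1 has joined it.

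The upstream sequences of Acod1, Cybb and Ncf1 are shown here because Acod1 reached the highest level per exon length of the members that were near 0 without LPS, while Cybb and Ncf1, whose products work in 1 complex, had LPS values of opposite sign in tdT+ dCAMs. They come from the RefSeq promoter table of build GRCm38.p6, in which 5 of the 9 members had an entry. Each is written 5′ to 3′ on the strand of the gene and ends just before the RefSeq start, or, for Acod1, before the first base that GENCODE assigns to an exon. Capitals mark matches to the searched letters.
Acod1 (chr14:103046762-103046976, plus strand): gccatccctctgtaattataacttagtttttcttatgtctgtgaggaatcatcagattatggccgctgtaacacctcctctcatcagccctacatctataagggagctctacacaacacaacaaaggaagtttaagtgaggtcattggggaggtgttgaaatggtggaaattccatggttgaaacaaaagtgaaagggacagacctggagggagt
Cybb (chrX:9469325-9469574, minus strand): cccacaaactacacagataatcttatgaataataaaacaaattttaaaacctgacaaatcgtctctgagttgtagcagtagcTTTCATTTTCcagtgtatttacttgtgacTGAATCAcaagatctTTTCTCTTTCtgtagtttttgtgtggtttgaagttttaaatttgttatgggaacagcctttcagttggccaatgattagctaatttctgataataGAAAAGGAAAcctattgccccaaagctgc
Ncf1 (chr5:134229626-134229875, minus strand): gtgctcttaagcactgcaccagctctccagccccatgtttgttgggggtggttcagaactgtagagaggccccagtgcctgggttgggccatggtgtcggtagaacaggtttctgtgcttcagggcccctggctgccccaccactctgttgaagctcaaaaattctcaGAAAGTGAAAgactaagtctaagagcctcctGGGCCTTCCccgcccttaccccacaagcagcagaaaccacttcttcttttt

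The windows of the 250 bases before each of 32851 RefSeq starts were searched on both strands for the letters GGGNNTTCC, a form of the kB element, a form of the interferon-stimulated response element (the letters GAAA repeated after a gap of any 2 bases), TGANTCA, the AP-1 element, which reads the same on both strands, GAGGAAG, a form of the PU.1 site, and TTGCNNAA, a form of the C/EBP site. They were held by 4.98, 2.98, 6.75, 10.6 and 9.56% of the windows, in that order. Ncf1 held 1 kB match, with its first base at -51, and 1 interferon-response match at -82. Cybb held interferon-response matches at -29, -124 and -168 and an AP-1 match at -139. No match stood in the windows of Acod1, Ass1 or Cyba, which says only that these letters are not there. The Cybb window lies inside the longest gene model of Cybb, upstream of a shorter model's start.

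Acod1 (chr14:103046977-103056573, protein coding, here and below in GRCm38 as annotated by GENCODE M21, which only locates the gene because the build behind the counts could be another) went from no or few counts to high levels under LPS in both populations. In tdT- dCAMs its level was 0 CPM in all 5 CTL libraries and 166, 173, 319, 193 and 402 CPM in the LPS libraries of mice 54, 56, 59, 60 and 61. In tdT+ dCAMs it was 1.46 CPM in mouse 174, 4.75 CPM in mouse 179 and 0 CPM in the other CTL libraries, against 166, 163, 398, 193 and 395 CPM in the LPS libraries. The groups did not overlap in either population (as for 9.32% of all genes tested in tdT- and 10.6% in tdT+ dCAMs, with LPS higher), and mice 59 and 61 were the highest in both. A count of 0 in a tdT- CTL library allows a level of up to 0.329 to 0.455 CPM, by counting error alone.

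The mean of Acod1 in tdT- dCAMs rose at least 665-fold (edgeR quasi-likelihood test over all genes, Benjamini-Hochberg adjusted p = 2.54e-05). This bound is taken against a floor of 3 counts per CTL library, since a group with no counts gives no ratio of its own. Here and below such a bound covers counting error only and compares group means, so a single mouse can lie under it. In tdT+ dCAMs the log2 fold change of Acod1 was 7.67 ± 1.17 (SE, adjusted p = 0.000302). A gene was called when its adjusted p was under 0.05 and its absolute log2 fold change over 1. In a bulk sample, fewer expressing cells and less RNA per cell cannot be told apart, here or for any gene below.

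Counted over the members, 5 of 9 rose under LPS in tdT- dCAMs and 5 of 9 in tdT+ dCAMs: Acod1, Nos2, Arg1, Arg2 and Slc7a2 in each case, and none fell. Of all genes tested, 7.2% rose and 4.27% fell in tdT- dCAMs, and 3.37% rose and 2.52% fell in tdT+ dCAMs. The median log2 fold change of the members, with genes at the floor set to their bound, was 6.30 in tdT- and 4.72 in tdT+ dCAMs, beside 0.02 and 0.01 over all genes tested. The 5 called members were called in both populations when any 1 mouse was left out, except Slc7a2 in tdT+ dCAMs, described below.

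**Figure D1:**
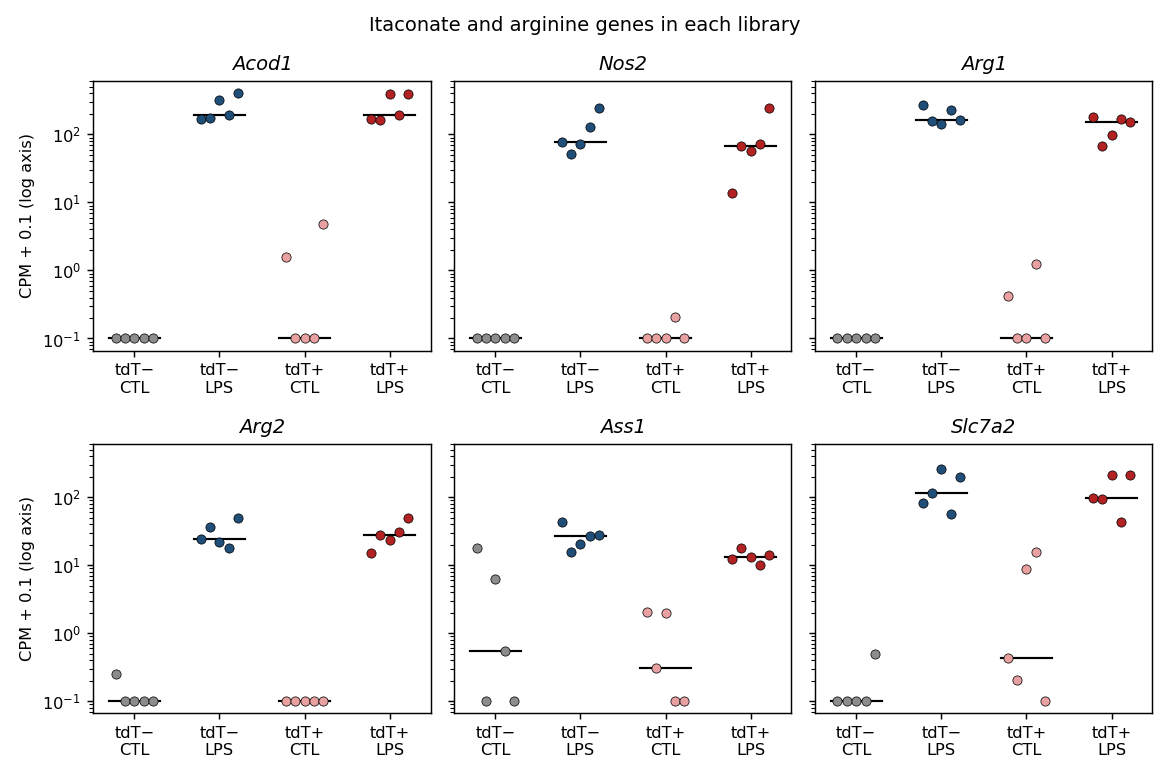
Level of the 6 itaconate and arginine genes in each of the 20 libraries, as CPM plus 0.1 on a log axis, 1 point per library and a bar at the group median. Points on the lowest line have 0 counts; within a population, all LPS points lie above all CTL points in every panel but Ass1 in tdT- dCAMs.

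Nos2 (chr11:78920787-78960254), the source of nitric oxide in activated macrophages, followed the same course with a wider spread between LPS mice. In tdT- dCAMs it had 0 counts in every CTL library and 77.3, 51.4, 72.1, 129 and 241 CPM in the LPS libraries of mice 54, 56, 59, 60 and 61. In tdT+ dCAMs it had 1 count in the CTL library of mouse 178 and 0 in the others, against 13.4, 67.9, 56.9, 72.5 and 242 CPM under LPS. Mouse 61 was the highest in both populations, and the lowest LPS library was the tdT+ one of mouse 54.

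The mean of Nos2 rose at least 303-fold in tdT- dCAMs (adjusted p = 1.84e-06) and at least 267-fold in tdT+ dCAMs (adjusted p = 2.67e-06). The tdT+ LPS mean was 90.6 CPM, and the tdT+ LPS library of mouse 54, at 13.4 CPM, lay far under it.

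Arg1 (chr10:24915221-24927484), which draws on the same arginine as Nos2, rose beside it. Its level in tdT- dCAMs was 0 CPM in each CTL library and 268, 155, 143, 226 and 161 CPM in mice 54, 56, 59, 60 and 61 under LPS. In tdT+ dCAMs Arg1 had 2 counts in mouse 174, 11 counts in mouse 178 and 0 in the other CTL mice, and 178, 67.9, 96.5, 167 and 151 CPM under LPS. In contrast to Nos2, mouse 54 gave the highest Arg1 level in both populations.

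Arg1 rose at least 506-fold in tdT- dCAMs (adjusted p = 2.00e-06) and by a log2 fold change of 8.78 ± 0.99 in tdT+ dCAMs (adjusted p = 1.32e-05).

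The balance between Arg1 and Nos2, a pair compared after their values were seen, varied from mouse to mouse. Per kilobase (kb) of exon, Arg1 averaged 85.5 ± 24.2 CPM per kb in tdT- and 59.2 ± 21.4 CPM per kb in tdT+ LPS libraries (SD, n = 5), and Nos2 25.9 ± 17.4 and 20.5 ± 19.96 CPM per kb. The per-length ratio of Arg1 to Nos2 was 6.87, 5.98, 3.91, 3.45 and 1.32 in the tdT- libraries of mice 54, 56, 59, 60 and 61. It was 26.2, 1.98, 3.36, 4.56 and 1.23 in the tdT+ libraries of the same mice. By this measure Arg1 exceeded Nos2 in all 10 LPS libraries, most in mouse 54 and least in mouse 61 in both populations. Exon length is the union over all annotated transcripts of a gene. By CPM alone, Nos2 was the higher in mouse 61, at 241 against 161 CPM in tdT- and 242 against 151 CPM in tdT+. In the tdT+ library of mouse 56 both were at 67.9 CPM.

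**Figure D2:**
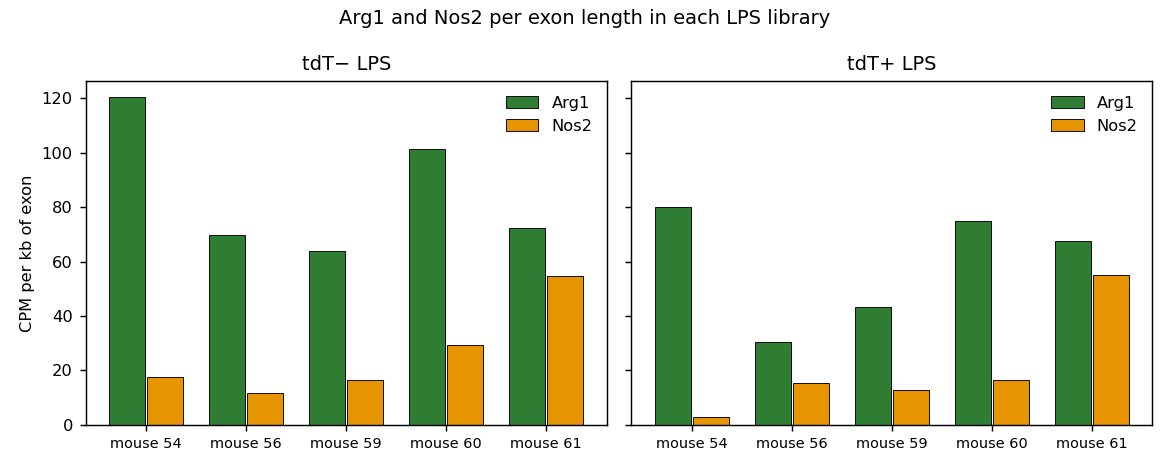
Arg1 and Nos2 in the 10 LPS libraries, as CPM per kb of exon on a linear axis from 0, 1 pair of bars per mouse, tdT- at the left and tdT+ at the right. The Arg1 bar is the taller in each pair, and mouse 61 has the pair closest in height, with ratios of 1.32 and 1.23.

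Arg2 (chr12:79130777-79156301), the mitochondrial arginase, was the least abundant of the called members by counts. In tdT- dCAMs it had 1 count in the CTL library of mouse 174 and 0 in the others, against 23.9, 35.98, 21.9, 17.8 and 49.3 CPM in LPS mice 54, 56, 59, 60 and 61. In tdT+ dCAMs it had 0 counts in every CTL library and 14.9, 27.6, 23.6, 30.2 and 49.3 CPM under LPS. The rise of Arg2 was at least 79.0-fold in tdT- dCAMs (adjusted p = 1.42e-05) and at least 85.8-fold in tdT+ dCAMs (adjusted p = 5.21e-06). The annotation places 285 exonic bases of Arg2 opposite the vesicle transport gene Vti1b, and the strand setting of the counting is not given in the sources used here. Vti1b stood at 73.2 to 116 CPM in the CTL libraries in which Arg2 had at most 1 count.

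Slc7a2 (chr8:40862396-40922308), the inducible arginine transporter, was also high in every LPS library. In tdT- dCAMs it had 3 counts in the CTL library of mouse 179 and 0 in the others, and 81.5, 115, 258, 57.2 and 197 CPM in LPS mice 54, 56, 59, 60 and 61. In tdT+ dCAMs the CTL libraries of mice 174, 175, 177, 178 and 179 held 0.325, 0.106, 8.65, 15.6 and 0 CPM, and the LPS libraries 96.6, 92.4, 209, 43.1 and 211 CPM. As for Acod1, mice 59 and 61 gave the highest levels in both populations, and no CTL library reached an LPS library. With LPS higher, this was so for 9.32% of all genes tested in tdT- and 10.6% in tdT+ dCAMs.

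The rise of Slc7a2 was at least 376-fold in tdT- dCAMs (adjusted p = 0.000114) and had a log2 fold change of 4.72 ± 1.18 in tdT+ dCAMs (adjusted p = 0.0151). The call in tdT+ dCAMs was lost without mouse 59 (log2 fold change 4.48, adjusted p = 0.0537) and without mouse 61 (4.48, adjusted p = 0.0553). Slc7a2 shares 635 exonic bases with Gm26584, a noncoding gene on the opposite strand.

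Ass1 (chr2:31470207-31520672), the recycling enzyme for citrulline, was not called. It was 17.9, 0, 6.14, 0.452 and 0 CPM in the tdT- CTL libraries of mice 174, 175, 177, 178 and 179, and 43.2, 15.3, 20.4, 26.4 and 27.7 CPM in the tdT- LPS libraries of mice 54, 56, 59, 60 and 61. In tdT+ dCAMs the CTL values were 1.95, 0.212, 1.84, 0 and 0 CPM and the LPS values 12.4, 17.7, 12.9, 10.01 and 13.8 CPM. The groups overlapped in tdT- dCAMs through mouse 174 and did not overlap in tdT+ dCAMs, as was the case, with LPS higher, for 10.6% of all genes tested.

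The log2 fold change of Ass1 was 2.44 ± 1.37 in tdT- dCAMs (adjusted p = 0.235) and 4.07 ± 1.49 in tdT+ dCAMs (adjusted p = 0.124). With the mouse as a block it was called in both populations (log2 fold change 5.06, adjusted p = 0.00460, and 5.32, adjusted p = 0.00653), and DESeq2 called it in tdT+ dCAMs (4.06, adjusted p = 0.0118). A call for Ass1 therefore depended on the model.

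Compared per kb of exon, Acod1 and Arg1 had the highest and Ass1 the lowest mean level of the 6 genes in LPS libraries of both populations. In tdT- LPS libraries the mean was 95.6 ± 40.0 CPM per kb for Acod1, 85.5 ± 24.2 for Arg1, 25.9 ± 17.4 for Nos2, 20.8 ± 8.997 for Arg2, 15.5 ± 9.16 for Slc7a2 and 11.02 ± 4.35 for Ass1 (SD, n = 5). In tdT+ LPS libraries Acod1 had a mean of 100.2 ± 46.6 CPM per kb, Arg1 of 59.2 ± 21.4, Nos2 of 20.5 ± 19.96, Arg2 of 20.4 ± 8.89, Slc7a2 of 14.3 ± 8.28 and Ass1 of 5.53 ± 1.15. The order of Nos2 and Arg2 was not settled: Nos2 exceeded Arg2 in 4 of 5 tdT- libraries, and Arg2 exceeded Nos2 in 4 of 5 tdT+ libraries, where its median was 19.3 against 15.4 CPM per kb. Neighbours by mean level had overlapping ranges over mice in both populations, apart from Arg1 (lowest 64.0) and Nos2 (highest 54.7) in tdT- libraries. By CPM alone, Slc7a2 averaged above Nos2, at 142 against 114 CPM in tdT- and 130 against 90.6 CPM in tdT+ LPS libraries.

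The 3 oxidase subunits, unlike the genes above, were abundant without LPS. Per kb of exon, Cyba averaged 1033 ± 262 CPM per kb in tdT- and 622 ± 116 in tdT+ CTL libraries, Cybb 159 ± 78.2 and 147 ± 28.6, and Ncf1 65.6 ± 22.1 and 91.3 ± 13.5 (SD, n = 5). None of the 3 passed the threshold for LPS in either population.

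Cybb (chrX:9435252-9487771), the catalytic subunit, had mostly higher values under LPS but was not called. In tdT- dCAMs it was 1534, 822, 529, 1235 and 489 CPM in CTL mice 174, 175, 177, 178 and 179, and 1168, 1358, 1653, 1184 and 1463 CPM in LPS mice 54, 56, 59, 60 and 61. In tdT+ dCAMs the CTL values were 862, 603, 1053, 937 and 825 CPM and the LPS values 1058, 1469, 1680, 1171 and 1472 CPM. CTL and LPS overlapped in tdT- dCAMs because mice 174 and 178 were high, and did not overlap in tdT+ dCAMs, where the highest CTL and the lowest LPS library nearly met. Of all genes tested, 10.6% did not overlap in tdT+ dCAMs with LPS higher.

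The log2 fold change of Cybb was 0.57 ± 0.25 in tdT- dCAMs (adjusted p = 0.138) and 0.68 ± 0.25 in tdT+ dCAMs (adjusted p = 0.132), and neither was called.

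Cyba (chr8:122424776-122432930), the flavocytochrome partner, had lower values in tdT+ than in tdT- libraries. It was 1123, 685, 940, 1397 and 1218 CPM in the tdT- and 858, 628, 607, 579 and 561 CPM in the tdT+ libraries of CTL mice 174, 175, 177, 178 and 179. In LPS mice 54, 56, 59, 60 and 61 it was 1169, 1069, 1003, 1282 and 1130 CPM in tdT- and 1008, 888, 829, 940 and 765 CPM in tdT+ libraries. The tdT+ library was the lower one in all 10 mice.

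The log2 fold change of Cyba between tdT+ and tdT- dCAMs was -0.73 ± 0.17 in CTL mice (adjusted p = 0.0128), which is under the fold threshold, and -0.35 ± 0.17 in LPS mice (adjusted p = 0.919). Among all genes tested, 3.61% were lower in the tdT+ library of every CTL mouse and 4.71% in that of every LPS mouse. For LPS against CTL it was 0.08 ± 0.17 in tdT- dCAMs (adjusted p = 0.812) and 0.45 ± 0.17 in tdT+ dCAMs (adjusted p = 0.126).

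Ncf1 (chr5:134220053-134229625), the cytosolic organizer, had lower values under LPS in tdT+ dCAMs. In tdT+ dCAMs it was 289, 308, 351, 312 and 413 CPM in CTL mice 174, 175, 177, 178 and 179, and 211, 157, 193, 236 and 132 CPM in LPS mice 54, 56, 59, 60 and 61. In tdT- dCAMs the CTL values were 226, 187, 190, 382 and 216 CPM and the LPS values 343, 227, 212, 264 and 167 CPM. The tdT+ groups did not overlap, as was the case, with LPS lower, for 7.19% of all genes tested, while the tdT- groups overlapped widely.

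The log2 fold change of Ncf1 for LPS was -0.85 ± 0.24 in tdT+ dCAMs (adjusted p = 0.0366), just under the fold threshold, and 0.01 ± 0.24 in tdT- dCAMs (adjusted p = 0.997). The difference between these effects was -0.86 ± 0.34 (edgeR, adjusted p = 0.253), so it was not shown that the populations responded differently. Ncf1 shares 408 exonic bases with Gtf2ird2 on the opposite strand, which stood at 0.131 to 23.5 CPM in CTL and at 1.04 to 8.66 CPM in LPS libraries.

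Within the oxidase, the ratio of Cybb to Ncf1 per exon length, a measure taken up after the values were seen, was 1.88, 1.23, 1.89, 1.90 and 1.26 in the tdT+ CTL libraries of mice 174, 175, 177, 178 and 179. In the tdT+ LPS libraries of mice 54, 56, 59, 60 and 61 it was 3.16, 5.90, 5.49, 3.13 and 7.06, above every tdT+ CTL library. That separation was fixed by the values given above, where Cybb and Ncf1 each separated CTL from LPS in tdT+ dCAMs. It is therefore no further result. In tdT- dCAMs the ratio ran from 1.43 to 4.29 in CTL and from 2.15 to 5.54 in LPS libraries, and the groups overlapped.

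**Figure D3:**
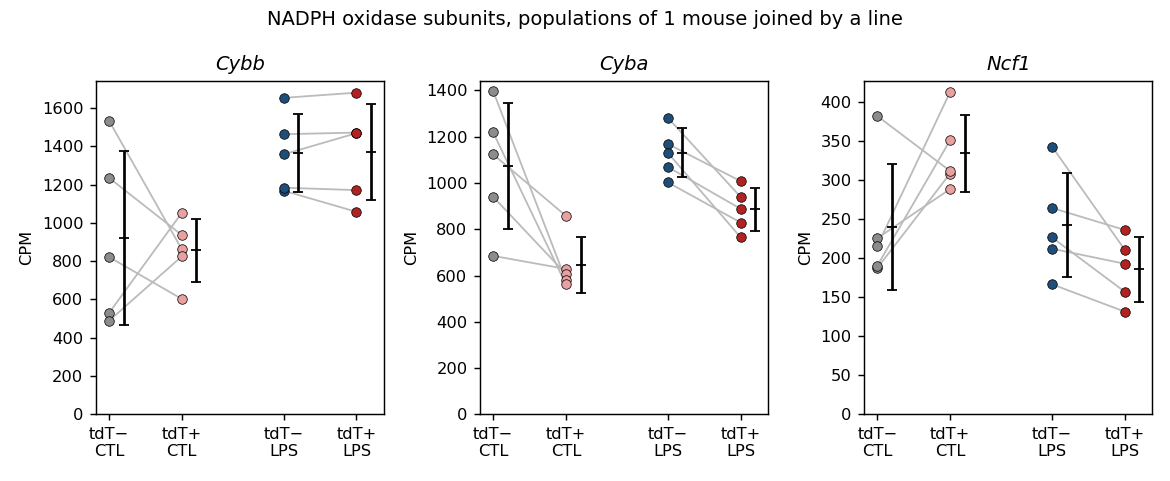
Cybb, Cyba and Ncf1 in each library, as CPM on linear axes from 0, with the tdT- and tdT+ libraries of a mouse joined by a line and the group mean ± SD beside the points (n = 5). Cyba is lower in the tdT+ library of all 10 mice, and Ncf1 in that of all 5 LPS mice.

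The comparison of tdT+ with tdT- dCAMs asks whether cells that were and were not labelled through Ccr2 at the time of tamoxifen differ. At harvest, Ccr2 itself was the higher in tdT- libraries, with means of 615 against 277 CPM in CTL and 70.8 against 15.6 CPM in LPS mice, so a cell without the label is not a cell without Ccr2. In CTL mice 2 of 9 members were called, both higher in tdT+ dCAMs, beside 3.01% of all genes tested that were higher. These were Acod1 (edgeR, adjusted p = 0.0383) and Slc7a2 (adjusted p = 0.0211). Acod1 had 9 counts in mouse 174 and 62 counts in mouse 179, against none in any tdT- CTL library. Slc7a2 was called mainly from 75 counts in mouse 177 and 149 counts in mouse 178. By counting error alone, the tdT+ mean was at least 3.30-fold the tdT- mean for Acod1 and at least 13.1-fold for Slc7a2. The tdT+ medians, 0 and 0.325 CPM, were under the tdT- floor of 0.377 CPM. Neither had counts in all 5 tdT+ libraries. The tdT- CTL libraries held fewer genes above 3 counts, 7376 to 9807 against 10390 to 11572 in tdT+ CTL libraries. Among them, the lowest count was 0 for Idh3a and 6 for Oat, whose tdT- CTL medians were 49.5 and 282 CPM. The bounds do not cover such low counts in single libraries.

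The call of Acod1 between populations of CTL mice was lost without mouse 174 (adjusted p = 0.0781), without mouse 179 (adjusted p = 0.168), and without any of the 5 LPS mice (adjusted p from 0.0617 to 0.0674). That of Slc7a2 was lost without mouse 177 (adjusted p = 0.0706) or mouse 178 (adjusted p = 0.10), and with the mouse as a block (adjusted p = 0.172). With the letter of the title (F or M) as a term both calls were lost (adjusted p = 0.0574 for Acod1 and 0.0642 for Slc7a2). Arg1, with 11 counts in 1 tdT+ CTL library and 2 in another, was not called (adjusted p = 0.0837) but was with the mouse as a block (log2 fold change 4.57, adjusted p = 0.0352). No member was called when only the 10 CTL libraries were fitted (adjusted p = 0.309 for Acod1 and Slc7a2).

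In LPS mice 0 of 9 members were called between tdT+ and tdT- dCAMs by edgeR, beside 0.0301% of all genes tested, and 0 by DESeq2. Over all genes, 899 had an unadjusted p under 0.05, and so had 1 member, Cyba. The interval of the difference was narrow for Cybb, with a log2 fold change of 0.0050 (95% interval -0.52 to 0.53). It was wider for the called LPS members, at 0.07 (-1.75 to 1.89) for Acod1, -0.33 (-1.74 to 1.07) for Nos2 and -0.12 (-2.21 to 1.97) for Slc7a2, so differences of over 2-fold in either direction lay inside these intervals. The intervals come from the fit without a mouse term, so they include the spread between mice. Within each LPS mouse, the tdT- and tdT+ levels of Acod1 and of Slc7a2 were less than 2-fold apart. For Nos2 they were 77.3 and 13.4 CPM in mouse 54.

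Direction within the LPS mice was uniform for a few members. Arg1 (log2 fold change -0.53, 95% interval -1.97 to 0.91), Cyba and Ncf1 (-0.39, -0.89 to 0.12) were lower in the tdT+ library of all 5 mice, as were 4.71% of all genes tested. For Arg2 the log2 fold change was -0.03 (-1.52 to 1.45), and for Ass1 -0.99 (-3.73 to 1.74), lower in tdT+ in 4 of 5 mice.

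**Figure D4:**
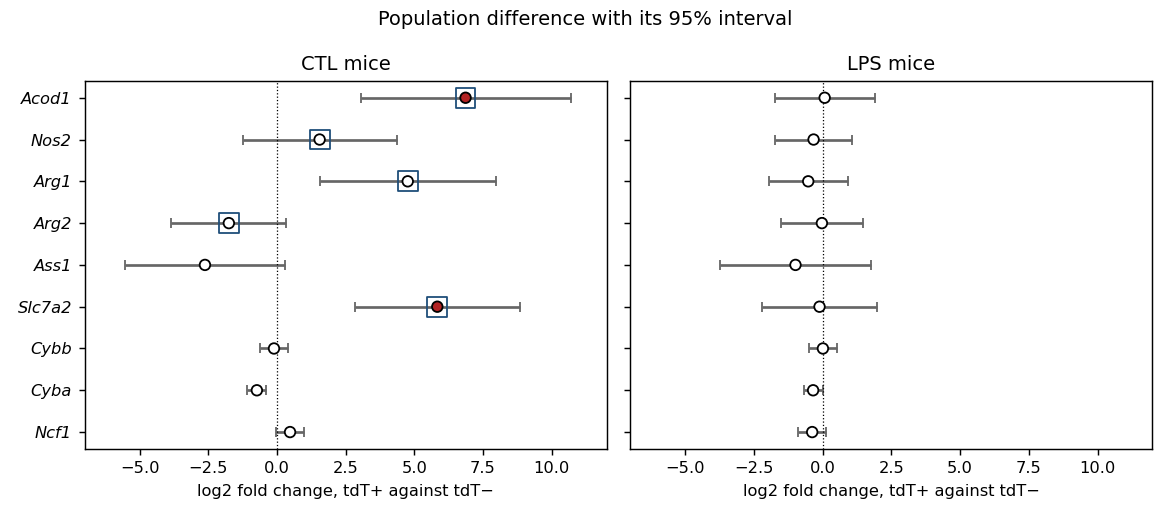
Log2 fold change of tdT+ against tdT- dCAMs for the 9 members with its 95% interval, in CTL mice (left) and LPS mice (right); filled points passed the threshold, and a square marks a gene with at most 3 counts in every library of a group, whose value depends on the prior count. In LPS mice 8 of the 9 intervals include 0, that of Cyba ends just below it, and those of Cybb, Cyba and Ncf1 are the narrowest.

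The LPS effect itself was compared between populations. For 0 of 9 members did the difference of the LPS effects pass the threshold by edgeR, beside 1.26% of all genes tested, and 2181 genes had an unadjusted p under 0.05. The members with an unadjusted p under 0.05 were Slc7a2 (adjusted p = 0.118), Acod1 (adjusted p = 0.156), Arg1 (adjusted p = 0.166) and Ncf1. For the first 3 the fitted effect was smaller in tdT+ dCAMs. Some of their tdT+ CTL libraries held 1 to 149 counts, and their tdT- CTL libraries at most 3, so the size of this difference depends on the prior count. DESeq2 called these 3 (adjusted p = 0.0157, 0.0243 and 0.0303), and the fit with the mouse as a block called Acod1 (adjusted p = 0.0333), while their LPS levels overlapped between the populations.

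Among the other genes of the citrate cycle, from which itaconate branches, all 25 listed genes were tested. In tdT- dCAMs 0 rose and 4 fell under LPS, beside 7.2 and 4.27% of all genes tested. The 3 with the smallest p were the isocitrate dehydrogenase subunit gene Idh3g (log2 fold change -1.31 ± 0.25, adjusted p = 0.000977), the fumarase gene Fh1 (-1.96 ± 0.45, adjusted p = 0.00547) and the mitochondrial isocitrate dehydrogenase gene Idh2 (-1.45 ± 0.37, adjusted p = 0.0109). In tdT+ dCAMs Idh2 fell (-1.62 ± 0.37, adjusted p = 0.00747) and the malate dehydrogenase gene Mdh2 rose (1.15 ± 0.23, adjusted p = 0.00266). Fh1 in tdT+ (-1.30, adjusted p = 0.0950) and Mdh2 in tdT- dCAMs (0.69, adjusted p = 0.0549) had the same signs but were not called. The difference of the LPS effects passed the threshold for 0 of the 25 genes, beside 1.26% of all genes tested. The list's median log2 fold change was 0.14 in tdT- and 0.06 in tdT+ dCAMs, beside 0.02 and 0.01 over all genes tested.

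The fall of Idh2 was clearest in tdT+ dCAMs, where Idh2 was 196, 185, 211, 235 and 228 CPM in CTL and 94.1, 67.5, 56.1, 80.6 and 44.7 CPM in LPS libraries, with no overlap (as for 7.19% of all genes tested, with LPS lower). In tdT- dCAMs its CTL values ran from 59.2 to 273 CPM and overlapped the LPS values of 27.2 to 76.3 CPM. Sdha, which encodes the catalytic subunit of succinate dehydrogenase, was level across the groups, with log2 fold changes of -0.06 and -0.11. Between populations, Suclg1, a succinate-CoA ligase subunit gene, was the lower in tdT+ cells of the CTL mice (log2 fold change -1.11 ± 0.30, adjusted p = 0.0394), and 0 of 25 were called in LPS mice, beside 0.0301% of all genes tested.

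Of 28 listed genes of arginine, nitric oxide and polyamine metabolism 26 were tested. In tdT- dCAMs 1 rose and 4 fell, beside 7.2 and 4.27% of all genes tested. The amino acid transporter gene Slc7a6 rose (5.01 ± 1.31, adjusted p = 0.0143), from a mean near the floor of 0.422 CPM in tdT- CTL libraries. In tdT+ dCAMs, with a CTL mean of 6.64 CPM, its log2 fold change was 0.65 (adjusted p = 0.875). Among those that fell were Sat1, which starts polyamine breakdown (-1.27 ± 0.17, adjusted p = 3.88e-05), Gatm, which spends arginine on creatine synthesis (-2.32 ± 0.36, adjusted p = 0.000141), and Oaz1, an inhibitor of ornithine decarboxylase (-1.24 ± 0.22, adjusted p = 0.000450). In tdT+ dCAMs Gatm fell (-2.36 ± 0.36, adjusted p = 0.000131) and Odc1, the ornithine decarboxylase that begins polyamine synthesis, rose (1.51 ± 0.37, adjusted p = 0.0118). Sat1 (-0.74, adjusted p = 0.00960) and Oaz1 (-0.74, adjusted p = 0.0379) were also lower in tdT+ dCAMs, under the fold threshold. The difference of the LPS effects passed the threshold for 0 of the 26 genes, beside 1.26% of all genes tested. The median over the list, with genes at the floor set to their bound, was -0.60 in tdT- and -0.11 in tdT+ dCAMs.

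Gatm was 234 to 580 CPM in tdT- CTL against 52.0 to 118 CPM in tdT- LPS libraries, and 343 to 462 CPM against 43.4 to 155 CPM in tdT+ libraries. The tdT+ groups did not overlap, as was the case, with LPS lower, for 7.19% of all genes tested. Odc1 was 26.4 to 49.2 CPM in tdT+ CTL and 76.4 to 132 CPM in tdT+ LPS libraries. The enzyme that follows Ass1 in citrulline recycling, encoded by Asl, had log2 fold changes of 0.16 and 0.01. Between populations of CTL mice, Gch1, which makes the cofactor of nitric oxide synthase, was lower in tdT+ dCAMs by the fit over all 20 libraries (-1.44 ± 0.40, adjusted p = 0.0433).

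Of 23 listed genes of the NADPH oxidase and its NADPH supply 17 were tested. Under LPS the Rac exchange factor gene Vav1 rose in tdT- (1.29 ± 0.17, adjusted p = 1.94e-05) and in tdT+ dCAMs (1.09 ± 0.17, adjusted p = 0.000129). Rac2, the small GTPase that completes the active oxidase, rose in tdT+ dCAMs (1.38 ± 0.20, adjusted p = 7.13e-05). In tdT- dCAMs Rac2 was also higher, by 0.89 (adjusted p = 0.00409), which is under the fold threshold. The small GTPase gene Rap1a fell in tdT- dCAMs (-1.05 ± 0.29, adjusted p = 0.0183). The difference of the LPS effects passed the threshold for 0 of the 17 genes, beside 1.26% of all genes tested. The list's median with genes at the floor set to their bound was 0.26 in tdT- and 0.10 in tdT+ dCAMs.

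Rac2 went from 192 to 342 CPM in tdT+ CTL libraries to 543 to 679 CPM in tdT+ LPS libraries, and Vav1 from 168 to 249 CPM to 437 to 522 CPM. The cytosolic subunit gene Ncf4 was not called, with log2 fold changes of 0.41 in tdT- and 1.02 in tdT+ dCAMs. Between populations of CTL mice Rap1a was lower in tdT+ dCAMs by the fit over all 20 libraries (-1.13 ± 0.29, adjusted p = 0.0243).

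**Figure D5:**
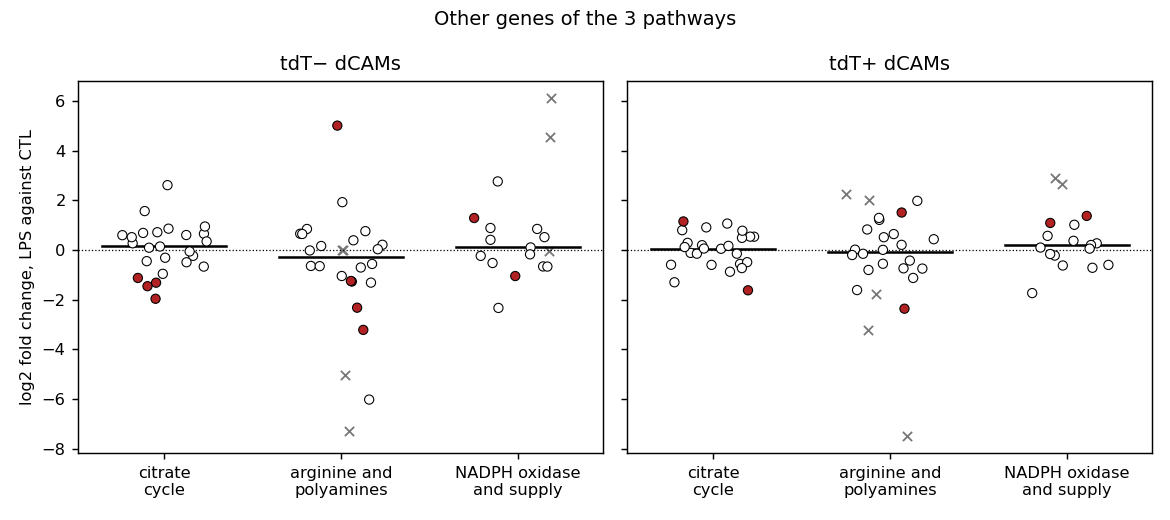
Log2 fold change for LPS against CTL of the other tested genes of the 3 pathways, tdT- dCAMs at the left and tdT+ dCAMs at the right, 1 point per gene and a bar at the median of the fitted values. Filled points passed the threshold, and crosses are genes with at most 3 counts in every library of a group, whose value depends on the prior count; most genes lie near 0.

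Markers of other cells moved with LPS too. The summed level of 9 neutrophil markers was 67.0 to 182 CPM in tdT- CTL, 434 to 1091 CPM in tdT- LPS, 84.0 to 196 CPM in tdT+ CTL and 448 to 959 CPM in tdT+ LPS libraries. Of the 9, S100a8, Mmp8 and Csf3r rose in tdT- and S100a8 and Mmp8 in tdT+ dCAMs, to means of 291 and 98.0 CPM in tdT- and 309 and 103 CPM in tdT+ LPS libraries for S100a8 and Mmp8. The neutrophil markers Ly6g, Ltf and S100a9 were at most 1.54, 0.746 and 2.18 CPM in tdT- LPS libraries and at most 0.156, 0 and 0.604 CPM in tdT+ LPS libraries. Retnlg, also a neutrophil gene, stood at 23.2 to 642 CPM in tdT- LPS and at 0 to 1.02 CPM in tdT+ LPS libraries.

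The 6 monocyte markers summed to 546 to 1011 CPM in tdT- CTL and 201 to 671 CPM in tdT- LPS libraries, and to 161 to 469 CPM and 107 to 133 CPM in tdT+ ones. Of these, Vcan rose and Ccr2 fell in both populations, and Plac8 rose in tdT+ dCAMs. Most of the CTL sums was Ccr2, whose mean fell from 615 to 70.8 CPM in tdT- and from 277 to 15.6 CPM in tdT+ dCAMs. Each of the other monocyte markers had a higher mean under LPS in both populations, though most were not called. The 5 dendritic cell markers summed to 12.8 to 556 CPM in tdT- CTL and 230 to 634 CPM in tdT- LPS libraries, and to 7.54 to 40.0 CPM and 4.62 to 18.3 CPM in tdT+ ones, and none was called for LPS. Most of the tdT- LPS sum was Ccr7 (222 to 599 CPM), while Flt3 and Zbtb46 averaged 86.8 and 57.8 CPM in tdT- CTL and 8.44 and 7.99 CPM in tdT- LPS libraries. Of the mast cell, B cell, T and NK cell, fibroblast, endothelial and microglial markers, at most 1 per list rose or fell under LPS in a population, Tmem119 of the microglial list in both. The part of these cells in the levels of the members was not tested.

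Last, the genes most like a member over the 20 libraries were sought for the 3 members whose log2 CPM averaged 4 or more. For Cybb these were Ripk3 (Pearson r = 0.92) and Mmp13 (r = 0.88), for Cyba S100a11 (r = 0.90) and Atox1 (r = 0.88), and for Ncf1 Ctsd (r = 0.80). For each member 5822 genes were compared, and the libraries share mice, treatment and depth.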

How the data were processed

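RNA from sorted dCAMs was made into low-input SMART-Seq libraries without molecular identifiers. Per the labels and the study's methods, the authors demultiplexed with bcl2fastq 2.20, aligned with STAR 2.7.11a and deposited raw gene counts from featureCounts 2.0.6 (the version in the processing notes); the notes name mm10 and GRCm39 without saying which made the counts, and the strand setting is not given in the sources used here. Duplicate reads could not be removed by identifier, so floors and bounds cover counting error only.

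From the counts, genes with a total of at least 10 over the 20 libraries (16632) were fitted with edgeR 4.0.16 (R 4.3.3) with TMM scaling and 1 mean per group over all 20 libraries, and tested by the quasi-likelihood test with Benjamini-Hochberg adjustment over all genes tested in each of 5 contrasts. Levels are CPM on the TMM-scaled library size, with a prior count of 2 where logs of levels were taken. The fitted log2 fold changes used the default prior count of edgeR instead. A call needed an adjusted p below 0.05 together with a log2 fold change beyond 1 in size. Bounds are the mean LPS (or tdT+) CPM over the mean CPM of a floor of 3 counts per library. Alternatives were DESeq2 1.42.0 (the study used its version 1.46.0), other scaling and filters, the 10 libraries of a comparison alone, the letter F or M of the title as a term, the mouse as a block, and leaving out each mouse. The main fit was tried on simulated counts with a smaller spread than these data and with changes only in well-counted genes. That trial does not cover members with few or no counts in CTL libraries.

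The tdT+ and tdT- libraries of a mouse come from 1 animal, which is what pairs them. The correlation of their deviations from the group means was 0.000914 to 0.0333 in CTL and 0.0471 to 0.119 in LPS mice. The block was a mouse term for contrasts within mice and limma 3.58.1 (voom with an estimated correlation) for LPS against CTL.

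The members, pathway lists and marker lists were chosen with earlier results of these data known. The text names all 9 members, of each pathway list up to 3 called genes per direction with the smallest p, and for members whose log2 CPM averaged 4 or more the 2 genes most correlated with each, of which 1 is not reported here. Values of Sdha, Asl and Ncf4 and the ratios of Arg1 to Nos2 and Cybb to Ncf1 were chosen after values were seen.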

Additional observations from a re-analysis of the deposited data

Results flagged for a closer look

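In 7 of 32 groups of 5 libraries in which a member varied, 1 library stood far from the others by Dixon's gap ratio (above 0.71). For values spread like a normal distribution chance gives about 1 in 20, which does not apply to 3 of the 7, where a single library with counts among zeros always gives the highest ratio: Nos2 at 0.105 CPM (1 count) in tdT+ CTL mouse 178, Arg2 at 0.152 CPM (1 count) in tdT- CTL mouse 174, and Slc7a2 at 0.393 CPM (3 counts) in tdT- CTL mouse 179. Arg1 was at 1.15 CPM (11 counts) in tdT+ CTL mouse 178, with 2 counts in mouse 174 and 0 in the others. Nos2 reached 242 CPM in tdT+ LPS mouse 61, against 72.5 CPM in the next library; the tdT- library of the same mouse, at 241 CPM, was also the highest of its group. Cyba was 858 CPM in tdT+ CTL mouse 174 against 628 CPM in the next. Ncf1 was 382 CPM in tdT- CTL mouse 178 against 226 CPM in the next.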

How the results depend on the processing

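For LPS, 5 members were called in each population, and 4 to 6 under the alternatives: 6 where Ass1 was added (DESeq2 and the fit on 10 libraries in tdT+, the block in both), 4 in tdT+ dCAMs without mouse 59 or 61, and 5 otherwise. Counts over all genes moved more. With DESeq2 they were 1545 for LPS in tdT+ dCAMs (979 by edgeR), 1644 between populations of CTL mice (712), 60 between those of LPS mice (5) and 744 for the difference of the LPS effects (209), of which 3 were members. In fits on the 10 libraries of a comparison they were 891 for LPS in tdT- (1907) and 2262 in tdT+ dCAMs, 7 between populations of CTL mice with 0 members, and 39 between those of LPS mice. With the letter of the title as a term, 0 members were called between populations of CTL mice and 3 genes between those of LPS mice. With the mouse as a block, 4523 and 1571 genes were called for LPS in tdT- and tdT+ dCAMs, 3 between populations of LPS mice and 83 for the difference, with 1 member; beside the calls given in the report it changed no other call of a member, and the sign of Cybb between populations (0.0093 in CTL, -0.0027 in LPS mice, -0.012 for the difference). Without low genes by filterByExpr, Ncf1 in tdT- dCAMs had a log2 fold change of -0.043 for LPS. When each mouse was left out in turn, calls between populations numbered 1 to 2 members and 478 to 1352 genes in CTL mice (1352 without mouse 175) and 1 to 6 genes in LPS mice (1 without mouse 59 or 61, 2 without 54, 56 or 60), and the difference 0 to 1 members (Slc7a2, without mouse 179) and 63 to 640 genes (63 to 76 without an LPS mouse, 640 without mouse 175). Log2 values that changed sign were all uncalled: Ncf1 for LPS in tdT- dCAMs (-0.071 to 0.27), Cybb between populations of CTL (-0.34 to 0.16) and LPS mice (-0.023 to 0.048), Acod1 (-0.028 to 0.11) and Arg2 (-0.18 to 0.093) between those of LPS mice, and the difference for Arg2 (-0.033 to 1.98) and Cybb (-0.15 to 0.34). The cause of these changes was not tested. Depth limits the members at or under 3 counts in CTL libraries, whose LPS effect is known only as a bound.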
